A study of Homo sapiens with 3 samples.

Results

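Binding of RBPJ and L3MBTL3 was examined at the gene that encodes RBPJ itself and at 7 genes for its relatives and nuclear partners (RBPJL, MAML1, MAML2, MAML3, RITA1, SNW1 and FHL1), 8 of 20098 protein-coding genes. The peaks taken were those whose summit, the base of highest enrichment, lay within 50 kb of an annotated transcription start site (TSS) of 1 of these genes. They came to 10 of 2926 RBPJ peaks and 1 of 444 L3MBTL3 peaks. Chromatin immunoprecipitation followed by sequencing had been done in MDA-MB-231, an established human breast cancer line, grown without any labelled treatment. There was 1 library with an antibody against RBPJ (also called CBF1 or RBPSUH), 1 with an antibody against the chromatin reader L3MBTL3, and 1 of input DNA, which was not analysed here. The labels give 30 to 40 M (megareads) of aligned reads for each library. Without replicates no value has a replicate error, and no test was made. The deposited fold is the enrichment at the summit over the peak caller's local background, a ratio that was compared only within its own list, and its error is unknown.

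RBPJ is the DNA-binding factor of the Notch pathway. Without Notch signalling it holds corepressors at its target genes. When a Notch receptor is cleaved, the receptor's intracellular domain enters the nucleus, binds RBPJ, and a Mastermind-like protein (MAML1, MAML2 or MAML3) joins them and recruits acetyltransferases. RBPJL is a paralogue of RBPJ that works with PTF1A in pancreatic acinar cells and does not bind the Notch intracellular domain. RITA1 binds RBPJ and carries it out of the nucleus, SNW1 (SKIP) is a splicing factor that also joins RBPJ complexes, and the KyoT2 isoform of FHL1 binds RBPJ and represses it. The favoured RBPJ recognition sequence is CGTGGGAA or TGTGGGAA, here called the high-affinity word, and TGGGAA is its core. Both were sought on both strands, and each high-affinity word also holds a core.

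The high-affinity words that the results turn on are set out below, each with 11 hg19 bases on either side, read 5′ to 3′ along the strand that holds the word, with the word in capitals. The RBPJ word lies in the peaks of both proteins at the RBPJ promoter (minus strand, chr4:26321242-26321271). The RBPJL word lies in a promoter with no peak (plus strand, chr20:43935350-43935379). Those of HEY2, NAPG and WAPL are from promoters whose pair of peaks was most like that of the RBPJ gene.
RBPJ: cacaacacggcCGTGGGAAatttcctaaac
RBPJL: atggcagggggCGTGGGAAgcccacatctg
HEY2 (upstream site): tccagccgaggCGTGGGAAcgcggccgcgg
HEY2 (downstream site): cagagttgcggCGTGGGAAagagccgctag
NAPG: gcccaaataggCGTGGGAAcgccgaggagg
WAPL: cgcgcggggacTGTGGGAAgcggagtgacg

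At its own gene RBPJ had 2 peaks, and L3MBTL3 had 1, which overlapped the stronger of them. The overlapping RBPJ peak (chr4:26321061-26321471) had a fold of 7.57 and a -log10 q of 9.54. Its fold was higher than that of 96.2% of RBPJ peaks, and at 411 bp it was wider than 98.8% of them. The L3MBTL3 peak (chr4:26321058-26321435) had a fold of 12.3 and a -log10 q of 20.4. It ranked 2 by fold among 444 peaks, and at 378 bp it was wider than 95.9% of L3MBTL3 peaks. The peaks of both proteins thus covered nearly the same stretch, and their summits were 55 bp apart, against a median of 53 bp over 133 overlapping pairs. The second RBPJ peak (chr4:26322186-26322329) had a fold of 6.08, above 82.3% of the list, with its summit 969 bp downstream of the other. The L3MBTL3 peak ended 750 bp before it, and no L3MBTL3 peak overlapped it.

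The RBPJ gene has 51 annotated transcripts with 43 different TSS, spread over 267 kb of chromosome 4. Neighbouring TSS more than 1 kb apart were put into separate groups, which gave 10 groups, and all 3 peaks lay at the group from 26321258 to 26324492. That group held 30 transcripts, 18 of them protein-coding, and its highest CpG ratio (observed over expected CpG in 1 kb) was 1.01. The RBPJ summits lay 20 and 66 bp upstream of their nearest TSS, both inside a UTR of other RBPJ transcripts. The TSS at 20 bp was that of a protein-coding transcript, and the TSS at 66 bp was that of a noncoding one. The L3MBTL3 summit lay 1 bp upstream of the TSS of a protein-coding transcript. The most upstream group, at 26165077 to 26165152, had a highest CpG ratio of 0.154 and was 156 kb from the nearest summit of either protein. The remaining 8 groups were 22.5 to 109 kb from an RBPJ summit and 23.5 to 111 kb from an L3MBTL3 summit. Every group other than the one with the peaks had neither a high-affinity nor a core word in the sequence from 250 bp before its first TSS to 50 bp after its last. The group with the peaks held 1 high-affinity word and 7 cores, counting the core within that word. Its TSS were spread over a longer stretch than those of any other group, so more sequence was searched there.

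**Figure D1:**
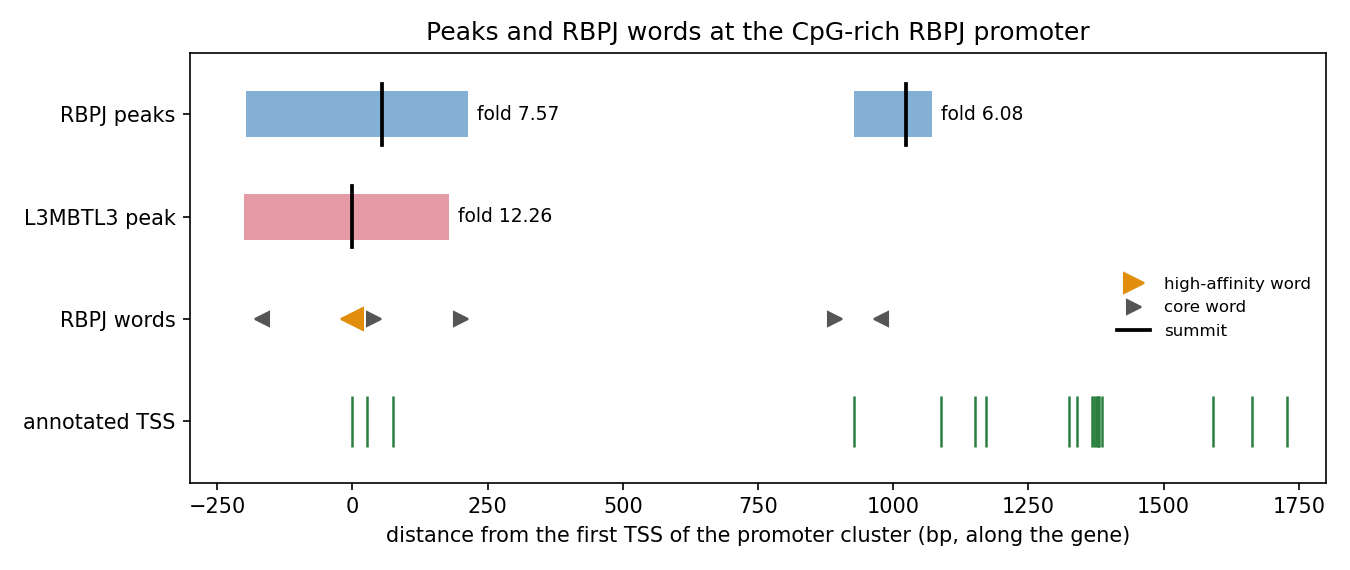
Peaks, RBPJ words and annotated TSS at the RBPJ promoter, by distance in bp from the first TSS of the group that holds the peaks; bars run from peak start to peak end, black lines mark summits, and triangles point along the strand of each word (the core within the high-affinity word is not drawn apart from it). The L3MBTL3 summit stands on the high-affinity word, and the RBPJ summit lies beside a core on the other strand.

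The shared promoter peaks held 1 high-affinity word, CGTGGGAA on the minus strand at 26321253 to 26321260. The L3MBTL3 summit, at 26321257, fell inside this word. That was so in 3 of the 45 L3MBTL3 peaks with a high-affinity word within 100 bp of the summit (6.67%), and in 3 of the 27 overlapping pairs with such a word in the peaks. The RBPJ summit, at 26321312, was 55.5 bp from the centre of the word, the upper quartile of the 249 RBPJ peaks with a word within 100 bp (median 30.5 bp). A core on the plus strand, 35 bases downstream of the word, was closer, with its centre 13.5 bp from the RBPJ summit. Within 100 bp of the summit, 8.51% of RBPJ peaks (95% Wilson interval 7.55 to 9.58, covering counting error only) and 10.1% of L3MBTL3 peaks (7.66 to 13.3) held a high-affinity word. In windows centred 2 kb to either side the shares were 1.56% and 0.788%. These flanks were not matched on base composition or on being promoters. Other words differed from the same flanks too. A GC box (GGGGCGGGG) was at 21.8% of RBPJ peaks against 1.03% of flanks, whereas a RUNX word (TGTGGTT) was at 3.38% and 3.33%. How much of the difference for the high-affinity word goes with composition was not tested.

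Besides the core within the high-affinity word, the shared RBPJ peak held 3 further cores. These 30-base stretches show them, and the core in the downstream peak, in capitals along the strand that holds each.
RBPJ, minus strand, chr4:26321076-26321105: gcgcgggcggggTGGGAAgggagcggcttg
RBPJ, plus strand, chr4:26321284-26321313: agtggaaggcggTGGGAAggaggtgtagcg
RBPJ, plus strand, chr4:26321445-26321474: cagtgctggatcTGGGAAtctctaggaaag
RBPJ, minus strand, chr4:26322220-26322249 (downstream peak): gaggaggggtccTGGGAAaatgggctgcgt
In the first 3 of these, 159, 35 and 196 bases separate the core from the high-affinity word. The core is frequent. Counting cores within high-affinity words, the core was within 100 bp of the summit in 29.5% of RBPJ and 19.8% of L3MBTL3 peaks. In the flanking windows the shares were 16.8% and 17.8%. These shares include windows with a high-affinity word, at 8.51% and 10.1% of peaks against 1.56% and 0.788% of flanks. The share with a core but no high-affinity word was not computed. The part of the shared RBPJ peak that lies before the first TSS of its group (plus strand, chr4:26321061-26321257, 71.1% G and C) is shown for its base composition, with its core in capitals. It ends within the high-affinity word, whose first bases on this strand are its last ones.
RBPJ promoter: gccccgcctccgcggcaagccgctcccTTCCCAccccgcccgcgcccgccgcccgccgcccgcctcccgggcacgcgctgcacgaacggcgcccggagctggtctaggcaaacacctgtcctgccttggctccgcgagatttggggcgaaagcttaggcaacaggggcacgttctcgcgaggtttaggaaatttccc

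Of the 133 overlapping pairs of peaks, 108 had both summits within 1 kb of the same protein-coding TSS. Likeness to the RBPJ promoter was measured as the distance between the percentiles of both folds in their lists. The promoter closest to it by this measure was that of HEY2, a Notch-induced repressor (RBPJ fold 8.86, L3MBTL3 fold 11.7, distance 2.30 percentile points). Next came DCLK2, a doublecortin-like kinase (6.88 and 10.8, distance 3.15), and SIPA1L2, a relative of Rap GTPase-activating proteins (10.3 and 14.5, distance 3.15). NAPG, a membrane fusion adaptor (9.78 and 7.97), and WAPL, a cohesin release factor (6.97 and 7.84), were at 4.89 and 5.98. Of these 5 promoters, those of HEY2, NAPG and WAPL held high-affinity words (2, 1 and 1) and those of DCLK2 and SIPA1L2 held none. The L3MBTL3 summit was inside a word at none of the 5, and the RBPJ summit was inside one at NAPG and WAPL.

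**Figure D2:**
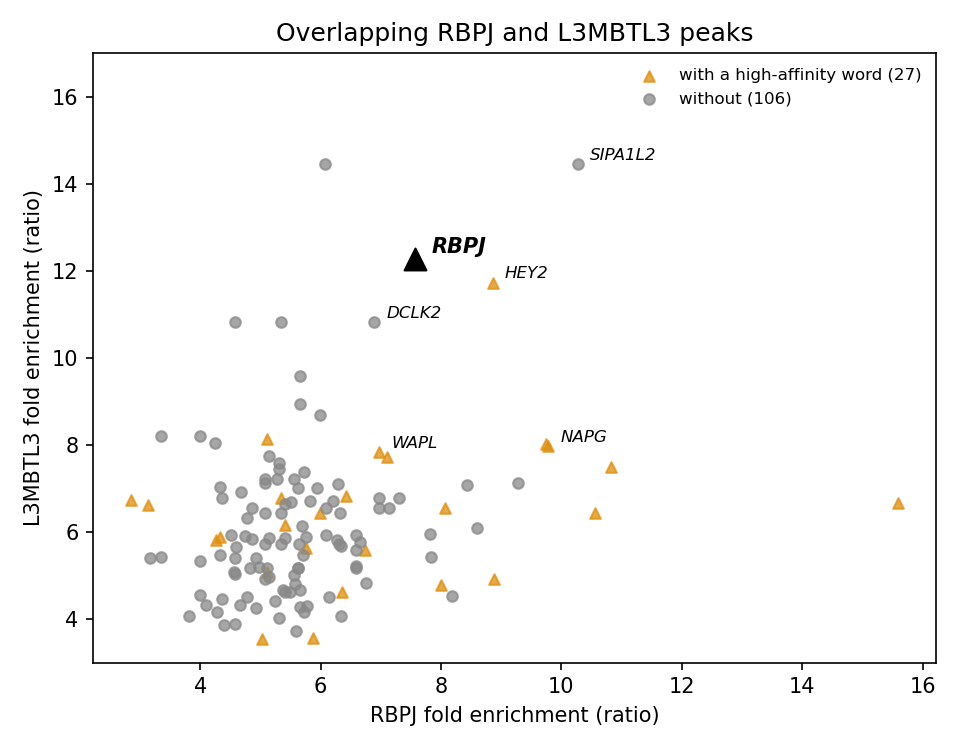
RBPJ fold (x axis, ratio) and L3MBTL3 fold (y axis, ratio) of the 133 overlapping pairs of peaks, 1 point a pair, with triangles for the 27 pairs that hold a high-affinity word and circles for the others. The RBPJ gene (7.57 and 12.3) and the 5 promoters most like it are named.

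Among the coactivator genes, MAML1 and MAML3 had an RBPJ peak at the promoter and MAML2 had none within 50 kb. The MAML1 peak (chr5:179159526-179159745) had its summit 205 bp upstream of the TSS, a fold of 5.64, above 70.8% of the list, and a -log10 q of 5.01. At MAML3 (chr4:141075321-141075404) the summit was 26 bp upstream of the TSS, the fold was 6.58, above 89.99% of the list, and the -log10 q was 6.80. Both summits lay between genes. Neither peak held a core or a high-affinity word, and neither window of 100 bp around the summit held any of the 9 words sought. These are the MAML1 peak (plus strand) and the part of the MAML3 peak before its TSS (minus strand, chr4:141075339-141075404), all in lower case because no word was found in them.
MAML1: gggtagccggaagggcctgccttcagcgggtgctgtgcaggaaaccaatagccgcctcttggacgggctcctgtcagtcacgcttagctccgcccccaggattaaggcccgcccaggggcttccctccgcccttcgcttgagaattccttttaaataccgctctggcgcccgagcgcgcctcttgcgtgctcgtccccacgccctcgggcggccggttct
MAML3: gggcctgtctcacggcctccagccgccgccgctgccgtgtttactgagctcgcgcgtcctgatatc

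MAML2 was the coactivator gene whose RBPJ peak lay far from its TSS. That peak (chr11:95946797-95947033, fold 6.01, -log10 q 5.86) was in an intron of MAML2, 129 kb downstream of its TSS, and so was outside the 50 kb limit. Its fold was above 81.3% of the list, and MAML2 had the nearest TSS of any protein-coding gene. With 40.5% G and C it differed in composition from the MAML1 peak (65.9%) and the MAML3 stretch (68.2%). It held 1 core, 100.5 bp from the summit, in capitals in the sequence below, which is read along the minus strand, the strand of the gene.
MAML2: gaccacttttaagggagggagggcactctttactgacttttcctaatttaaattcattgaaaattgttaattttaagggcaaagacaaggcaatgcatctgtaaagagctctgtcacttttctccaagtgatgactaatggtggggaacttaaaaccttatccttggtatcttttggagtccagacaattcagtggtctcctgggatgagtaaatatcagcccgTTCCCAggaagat

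MAML1 had 2 further RBPJ peaks within 50 kb, and both lay at the promoters of neighbouring genes. The peak 33.9 kb upstream of MAML1 (fold 4.74) was 1 bp from a TSS of CANX, which encodes the chaperone calnexin, and its window held an E-box (CACGTG), as did 6.87% of RBPJ peaks. The peak 48.1 kb from a TSS of a noncoding MAML1 transcript (fold 4.69) was 111 bp from a TSS of SQSTM1, which encodes the autophagy receptor p62. Its window held an AP-1 word (TGAGTCA or TGACTCA), as did 11.2% of RBPJ peaks. It was also the peak just inside the 50 kb limit, and the one just outside it was 74.8 kb upstream of MAML1 with a fold of 5.66.

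RITA1 had 3 RBPJ peaks at its promoter, which it shares with DDX54, a helicase gene on the other strand. Their folds were 4.002 (chr12:113623102-113623174), 5.08 (chr12:113623262-113623361) and 5.79 (chr12:113623465-113623585), above 10.4%, 48.0% and 75.1% of the list. The -log10 q values were 1.47, 3.00 and 4.27, so all 3 were below the stricter threshold of 5 that was set as an alternative. The summit of the weakest peak was in coding sequence of DDX54, 136 bp from a TSS of that gene and 222 bp from one of RITA1. The other summits were in RITA1 UTR sequence, 9 and 40 bp downstream of a TSS. The middle peak held the 1 core found in these peaks (plus strand, chr12:113623258-113623287, core in capitals), and an E-box was also within 100 bp of its summit.
RITA1: cgggccgcgcgcTGGGAAcgcagaaggggg

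RBPJL, the paralogue, had the converse of what was seen at MAML1 and MAML3, namely a high-affinity word without a peak. The word CGTGGGAA was on the plus strand of its RefSeq promoter, 119 to 112 bases before the TSS. Promoter sequences of 300 bases, from 250 before to 50 after a TSS, were taken from RefSeq (GRCh38.p14), where all 8 genes had at least 1 of 35116 entries, and 2.52% of the entries held a high-affinity word. Of the 23 entries for the 8 genes, 2 held one: that of RBPJL and the RBPJ promoter described above, where it was on the minus strand, 115 to 108 bases before the RefSeq TSS. No summit of either protein was within 32.4 kb of an RBPJL TSS. The peak at that distance (chr20:43976944-43977007, fold 6.50, above 89.3% of the list) was in coding sequence of SDC4, a heparan sulphate proteoglycan gene, 82 bp from its TSS. The highest CpG ratio at an RBPJL TSS was 0.563, the lowest of the 8 genes.

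SNW1 and FHL1 had no peak of either protein within 50 kb. The nearest RBPJ summit to SNW1, with a fold of 5.61, was 112 bp from a TSS of SPTLC2. It was 120 kb from the closest of the 4 SNW1 TSS, that of a noncoding transcript. For FHL1, with 30 TSS on chromosome X, the nearest RBPJ summit was 6112 kb away. Both genes have CpG-rich promoters, with highest CpG ratios of 0.942 at SNW1 and 0.861 at FHL1. The ratios were 1.01, 0.920, 0.981 and 0.832 at RBPJ, MAML1, MAML3 and RITA1, which had promoter peaks, and 0.604 at MAML2. A missing peak says only that none was called in these libraries. For the 7 genes other than RBPJ, the nearest L3MBTL3 summit was 976 kb from a TSS of MAML3 and had a fold of 4.96.

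**Figure D3:**
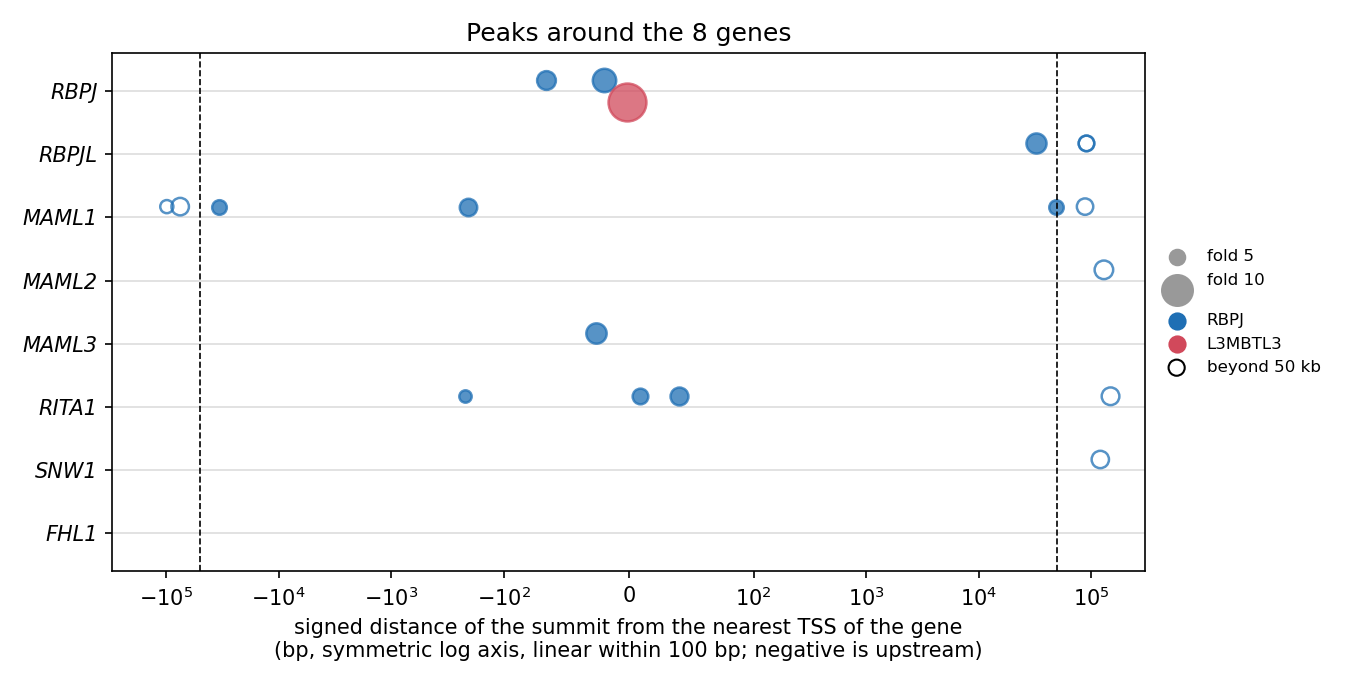
Peaks around the 8 genes by signed distance of the summit from the gene's nearest TSS (x axis, bp, symmetric log scale, negative upstream); area grows with the fold, filled circles are within 50 kb (dashed lines) and open ones beyond it, the farthest at 148 kb. RBPJ, MAML1, MAML3 and RITA1 had RBPJ summits within 205 bp of a TSS, and the 1 L3MBTL3 circle is at RBPJ.

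Over the 8 genes, 5 had an RBPJ summit within 50 kb, against 23.0% of all protein-coding genes, and 1 had an L3MBTL3 summit, against 3.05%. A summit of an RBPJ peak overlapped by an L3MBTL3 peak was within 50 kb of 1 gene, RBPJ, against 1.05% of all genes. Within 1 kb of a TSS, 4 of the 8 had an RBPJ summit, against 9.29% of all genes and 12.8% of the 14241 with a CpG-rich TSS (ratio above 0.6). The corresponding shares of all genes were 1.37% for L3MBTL3 and 0.517% for overlapping peaks, and RBPJ was again the 1 gene with each. At 10 kb the same 4 genes had an RBPJ summit and RBPJ had the other kinds, against 12.2%, 1.62% and 0.617% of all genes. With a -log10 q of at least 5, an RBPJ summit was within 50 kb of 4 of the 8 genes (MAML1, MAML3, RBPJ and RBPJL) and an L3MBTL3 summit of 1, against 6.56% and 0.876%. MAML1 passed narrowly, at 5.01, and RBPJL was counted in both cases through the peak 82 bp from an SDC4 TSS. Over all peaks, 4 of the 8 genes were left where the nearest protein-coding TSS had to be their own. The share of all genes was not computed under that rule. Of the genes with a CpG-rich TSS, 26.8% had an RBPJ summit and 3.76% an L3MBTL3 summit within 50 kb. Genes with many TSS cover more sequence: the windows ran from 100.001 kb for MAML2 to 311 kb for RBPJ, and the effect of window size on these counts was not tested. The background was not matched on gene activity, which these files do not give.

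The folds of the 10 RBPJ peaks ran from 4.002 at RITA1 to 7.57 at RBPJ, with a median of 5.71, against 5.08 over all 2926 RBPJ peaks, and 6 of the 10 were above the list's median. The 7 peaks within 1 kb of a TSS had a median of 5.79. Of the 10 peaks, 6 had a TSS of 1 of the 8 genes as the nearest protein-coding TSS, and 4 were closer to SDC4, CANX, SQSTM1 or DDX54. High-affinity words within 100 bp of the summit were found at 1 of the 10 peaks, the shared one at RBPJ, and cores at 3, against 8.51% and 29.5% of all RBPJ peaks. A TEAD word (GGAATG), present at 13.7% of RBPJ peaks, was found at 1, the downstream RBPJ promoter peak. None of the 10 windows held a GC box (GGGGCGGGG), an ETS word (CCGGAAGT), a CRE (TGACGTCA) or a RUNX word (TGTGGTT), which were in 21.8%, 3.25%, 1.57% and 3.38% of RBPJ peaks.

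**Figure D4:**
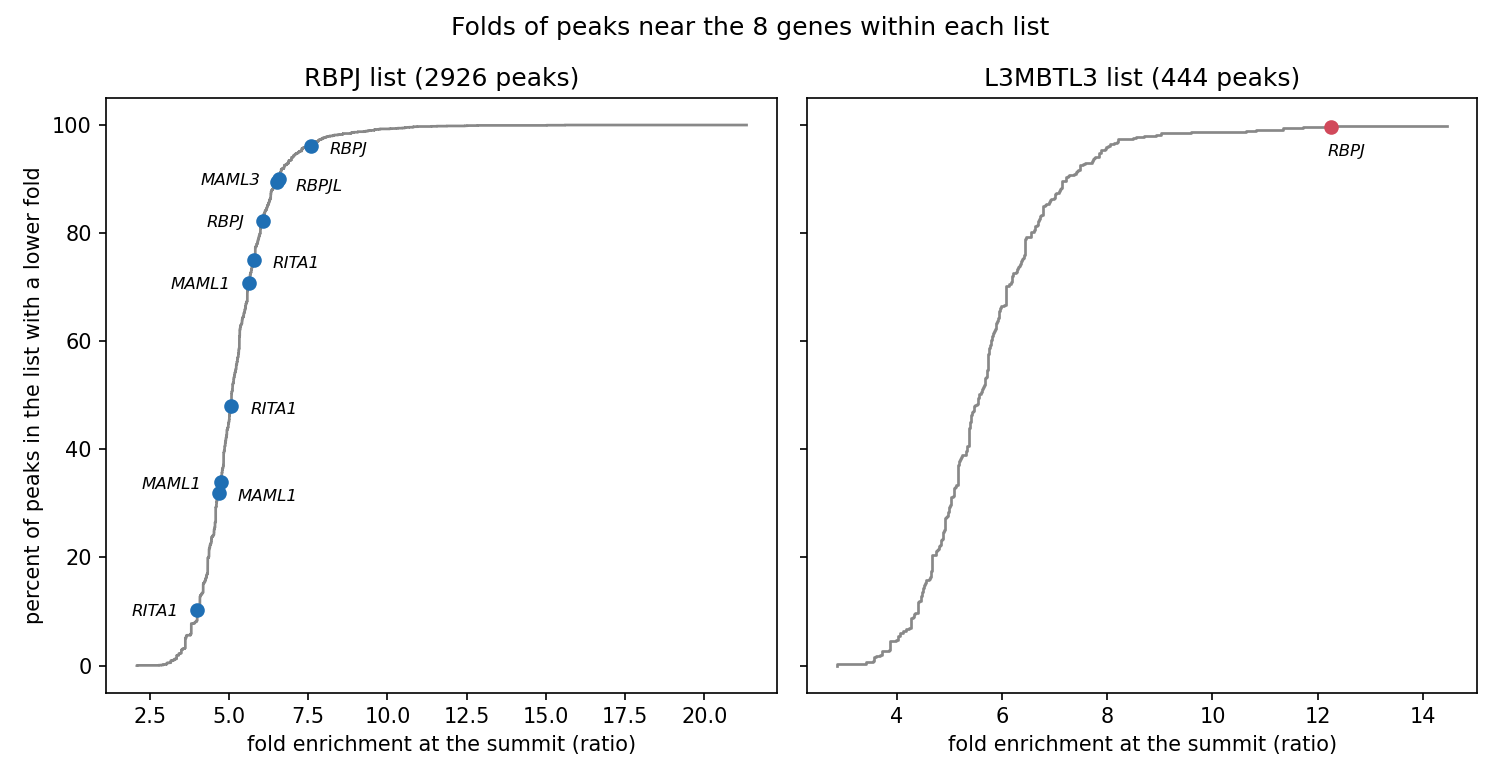
Percent of peaks in each list with a lower fold (y axis) against the fold at the summit (x axis, ratio), with grey lines for whole lists and points for the peaks within 50 kb of the 8 genes. The RBPJ points run from 4.002 to 7.57, and the L3MBTL3 point, 12.3, is near the top of its list.

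For comparison, 26 other genes of RBPJ complexes (Notch receptors, histone acetyltransferases, the histone methyltransferase KMT2D, mediator kinase subunits, and corepressors with their histone-modifying and chromatin-reading partners) were looked up. Of these, 12 (46.2%) had an RBPJ summit within 50 kb, against 23.0% of all protein-coding genes. An L3MBTL3 summit was within that distance of 5 (19.2%), against 3.05%, and an overlapping peak of 4 (15.4%), against 1.05%. The list was chosen with earlier results of these data known. The 4 were NOTCH1, a Notch receptor gene (RBPJ fold 6.27, L3MBTL3 fold 5.81), the corepressor genes SPEN (3.35, with L3MBTL3 folds of 5.42 and 8.20) and BEND6 (4.93 with 4.26, and 5.77 with 4.30), and KMT2D (4.33 and 5.88). The KMT2D peak lay 228 bp from a TSS of RHEBL1, and the weaker BEND6 peak lay 70 bp from one of DST. The -log10 q of these RBPJ peaks was 5.34 at NOTCH1, 1.44 at SPEN, 4.36 and 5.63 at BEND6, and 1.82 at KMT2D. The RBPJ folds at SPEN and KMT2D were above only 1.23% and 17.1% of RBPJ peaks, and the others were above 43.1% to 86.0%. With a -log10 q of at least 5 asked of both peaks, none of the 26 had an overlapping peak, the RBPJ gene kept its own, and 0.199% of all genes had one.

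**Figure D5:**
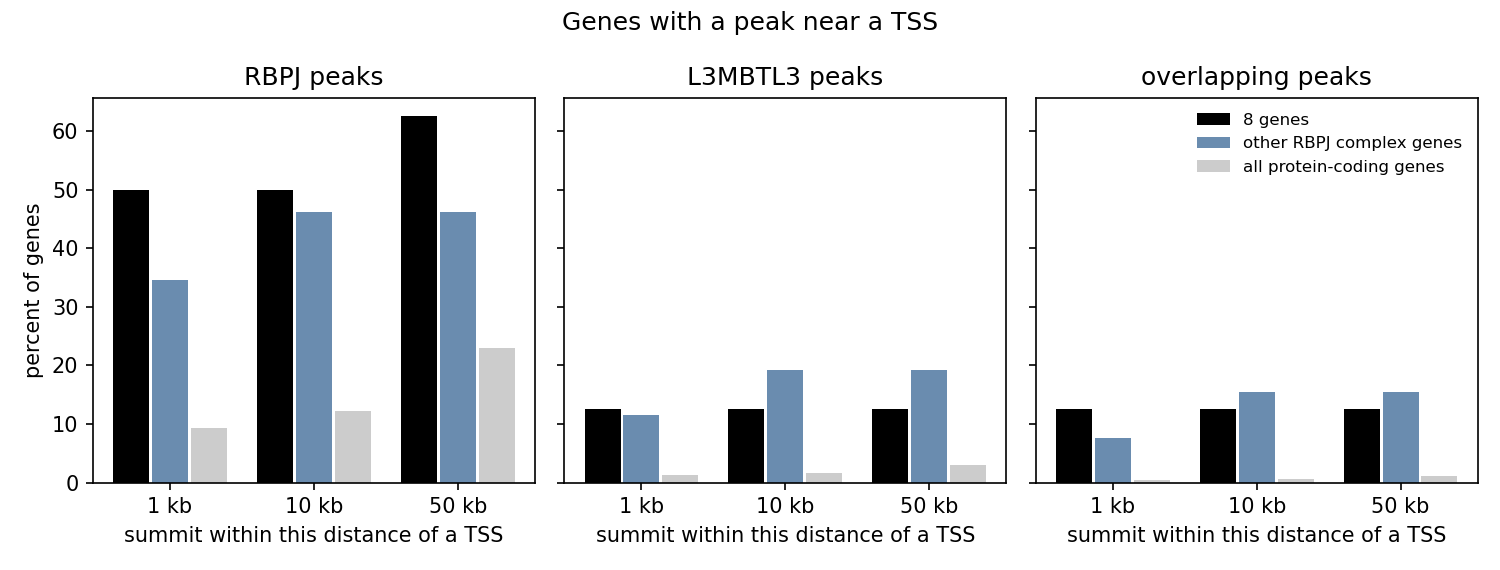
Percent of genes (y axis) with a summit within 1, 10 or 50 kb of a TSS (x axis) for RBPJ peaks, L3MBTL3 peaks and overlapping peaks, with bars for the 8 genes, the 26 other genes of RBPJ complexes and all 20098 protein-coding genes. Of the 8 genes, 4, 4 and 5 had an RBPJ summit within the 3 distances, and 1 had an L3MBTL3 summit within each.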

How the data were processed

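Per the labels' protocols and the submitters' processing notes, reads (50 cycles, single end) were trimmed with Trimmomatic, aligned to hg19 with BWA 0.7.15, and peaks were called with MACS2. Its version, cutoff and control library are not given in these sources. For each peak the authors deposited a fold enrichment (a ratio), a -log10 p and a -log10 q. The lowest deposited -log10 q was 1.31 for RBPJ and 1.30 for L3MBTL3. Each list comes from 1 library, and read counts of single peaks are unknown.

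TSS were those of all transcripts of protein-coding genes on chromosomes 1 to 22 and X in GENCODE 44 lifted to GRCh37, the build of the files. Coordinates are 1-based. Peaks were shared if they overlapped by at least 1 bp. Words were sought within 100 bp of summits. Named genes are the 8 genes, the 5 promoters whose percentiles of both folds were nearest to those of RBPJ, and those of 26 complex genes with a shared peak. Genes, lists and words were chosen with earlier results of these data known. No test was made. Python 3.11.15, pandas 2.3.3 and pysam 0.24.0 were used, and the functions for words, overlaps and distances were tested on simulated data. Alternatives are given at the end.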

Additional observations from a re-analysis of the deposited data

How the results depend on the processing

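Of 44 alternatives for 10 results, 31 left the value within 1.5 times of a count or within the interval of a share. The 10 RBPJ peaks became 5 at a -log10 q of at least 5 and 6 where the nearest protein-coding TSS had to be that of 1 of the 8 genes. If a gap of up to 1 kb between peaks still counted as shared, 2 RBPJ peaks in place of 1 were shared, both at RBPJ. The core TGGGAA in place of the high-affinity word gave 3 peaks. Among promoter peaks alone the RBPJ fold of the RBPJ promoter was above 97.6% of peaks. The share of all genes with an RBPJ summit was 12.2% at 10 kb, 9.29% at 1 kb, 6.56% at the stricter q and 26.8% among genes with a CpG-rich TSS. For L3MBTL3 these shares were 1.62%, 1.37%, 0.876% and 3.76%. The CpG-rich background and the count with gene bodies included (11 RBPJ peaks at 6 genes, with MAML2) were chosen after seeing the data. No paired analysis was possible because each antibody has 1 library. With 1 library and no read counts, a missing peak cannot be told apart from too little depth.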
